A study of Homo sapiens with 6 samples.

Results

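The 10 genes described here encode elastic fibre and other extracellular matrix proteins together with inhibitors of matrix metalloproteinases: FBLN5, FBLN1, FBN1, LUM, CCDC80, FN1, LAMB1, TIMP1, TIMP2 and TIMP3. They were chosen by symbol from a table of 37822 genes, and all 10 were found and passed the filter on low counts that left 14253 tested genes. The choice included genes known to stand higher with VPS72 in these same libraries, so their fold changes are a description and are given without p-values. The libraries came from Huh7, an established human hepatocellular carcinoma cell line. In 3 of them the cells had been infected with a lentivirus that overexpresses VPS72, a protein that chaperones histone H2A.Z within chromatin remodelling complexes (SRCAP, TIP60). In the other 3 the cells had received a FLAG control lentivirus, and their genotype is labelled WT. Both viruses were packaged in HEK293T cells, and infection lasted 24 h.

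The extracellular matrix is the protein network outside cells. Elastic fibres are built on fibrillin microfibrils, onto which elastin is deposited and crosslinked with the help of fibulins. Basement membranes are sheets of laminin and type IV collagen, and fibronectin is an adhesive glycoprotein that integrins on the cell surface pull into fibrils. Metalloproteinases cut these proteins, and the TIMP inhibitors block the proteinases. In liver, fibrillar collagen and lumican come mainly from stellate cells and fibroblasts, while hepatocytes secrete fibronectin into the plasma.

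FBLN5 stood highest relative to control among the 10 genes, at 62.7 ± 3.20 CPM in VPS72 libraries and 47.7 ± 1.89 CPM in FLAG libraries (SD, n = 3 per group), a difference of 31.5%. In RNA from a whole culture, more cells with a transcript and more of it per cell cannot be told apart. CPM is the count per 1000000 counts of a library whose size was scaled by TMM. CCDC80 (22.1% higher), LUM (19.7%) and TIMP3 (18.0%) followed, then TIMP2 (14.4%) and FBLN1 (12.6%). FN1 was 6.24% higher, TIMP1 5.06%, FBN1 2.95% and LAMB1 0.924%. All 10 differences were positive, as were 48.8% of those of tested genes. Of the 6900 tested genes at least as abundant as TIMP1, the lowest of the 10 in CPM, 3894 had a positive log2 fold change. In edgeR's quasi-likelihood test over all genes, FBLN5, CCDC80, LUM and TIMP3 were past a Benjamini-Hochberg (BH) adjusted p of 0.05, as were 0.617% of tested genes (0.421% higher and 0.196% lower). Of the 6900 genes at least as abundant as TIMP1, 58 were past it in the higher and 23 in the lower direction. Nothing is read from the count among the 10 genes, since they were picked with this contrast in view.

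Upstream sequences are shown for the 3 of these 4 genes that matched the RefSeq promoter table, and for FN1 and LAMB1. These stood 6.24% and 0.924% above control and were not past the threshold, though the groups were apart for FN1. The windows of FBLN1, TIMP1 and FBN1 are not printed. The table (GRCh38.p14) gives 250 bases before a gene's start, and 8 of the 10 genes matched it. Of FBLN5, which has 2 starts there, the outer one was used. Each line runs 5′ to 3′ from base -250 on the gene's strand and ends before the first exon base of GENCODE release 29, so that no transcribed exon is shown. Capitals mark matches that lie wholly inside the printed stretch to the motifs searched on both strands, the CCAAT box CCAAT, the GC box GGGCGG, the TATA box TATAAA, the AP-1 site TGANTCA, the E-box CACGTG and the CRE site TGACGTCA.
FBLN5 (chr14:91947824-91947944, minus strand): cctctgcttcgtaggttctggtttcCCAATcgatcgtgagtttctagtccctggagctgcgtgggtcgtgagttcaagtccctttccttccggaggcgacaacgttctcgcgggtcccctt
CCDC80 (chr3:112641301-112641393, minus strand): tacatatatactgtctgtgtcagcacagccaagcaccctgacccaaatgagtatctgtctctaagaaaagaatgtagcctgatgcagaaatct
TIMP3 (chr22:32801455-32801700, plus strand): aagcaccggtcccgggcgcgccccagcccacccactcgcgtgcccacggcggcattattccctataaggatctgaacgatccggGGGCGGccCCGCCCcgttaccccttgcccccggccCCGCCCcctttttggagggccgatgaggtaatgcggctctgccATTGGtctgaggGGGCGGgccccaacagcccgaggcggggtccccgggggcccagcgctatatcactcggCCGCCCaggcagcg
FN1 (chr2:215436173-215436318, minus strand): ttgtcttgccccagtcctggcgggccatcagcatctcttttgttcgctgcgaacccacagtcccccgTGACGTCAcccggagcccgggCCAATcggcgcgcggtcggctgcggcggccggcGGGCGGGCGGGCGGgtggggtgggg
LAMB1 (chr7:108003256-108003411, minus strand): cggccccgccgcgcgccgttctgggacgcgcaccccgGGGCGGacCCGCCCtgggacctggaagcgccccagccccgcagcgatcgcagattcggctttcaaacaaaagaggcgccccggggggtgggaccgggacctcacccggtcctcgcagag

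The upstream windows did not share a motif. Over the full 250 bases, GC boxes were in the windows of 6 of 8 genes (FBLN5, FBLN1, TIMP1, TIMP3, FN1 and LAMB1), against 42.6% of 35116 promoters of the same length, and CCAAT boxes in those of FBLN5, TIMP3 and FN1, against 32% of promoters. The GC boxes of FBLN5, at -77, -72 and -9, all lie past its printed stretch, which ends at -130 before the first annotated exon base. FN1 alone held a CRE site, at -183, which 1.65% of promoters hold. None of the 8 windows held a TATA box, an AP-1 site or an E-box in these letters, which 10.7%, 6.57% and 6.34% of promoters do. The CCDC80 window stood apart in composition, with 42% G and C and 1 CG pair, where the other 7 had 64.8% to 77.6% and 12 to 32 CG pairs and all promoters a median of 58% and 11. These are matches of letters and not measured binding, and a link of upstream sequence with fold change was not tested.

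The libraries held 29091824, 26694675 and 23969324 counts in VPS72 replicates 1 to 3 and 25352335, 25184930 and 21345279 in FLAG replicates 1 to 3. VPS72 itself was at 1150.3 to 1173 CPM in VPS72 libraries and at 21.3 to 26.7 CPM in FLAG libraries (log2 fold change 5.60 ± 0.06, SE; edgeR quasi-likelihood test, BH-adjusted p = 1.85e-18), which is in the direction of the labels. Whether replicates are separate cultures is not in the labels, and p-values therefore reflect the spread among these libraries alone, which may be technical. Over all 14253 genes 60 were past the threshold in the higher and 28 in the lower direction. Markers of other cell types summed to far less than the hepatocyte markers given below. The 14 fibroblast and stellate cell markers summed to 15.4 to 16.9 CPM in VPS72 libraries and 16.1 to 17.9 CPM in FLAG libraries, with POSTN and TWIST1 at 0 counts in all libraries, COL1A1 the highest (6.21 ± 1.36 CPM in VPS72 and 7.06 ± 0.47 CPM in FLAG libraries) and PDGFRA next (4.69 ± 0.85 CPM in VPS72 and 5.24 ± 0.68 CPM in FLAG libraries). The 10 endothelial markers summed to 4.13 to 5.01 CPM in VPS72 libraries and 2.93 to 4.55 CPM in FLAG libraries, nearly all of it PECAM1, with PLVAP at 0. The 10 immune markers summed to 13.9 to 14.9 CPM in VPS72 libraries and 11.7 to 13.1 CPM in FLAG libraries, nearly all of it LYZ, with NKG7 at 0. The 10 markers of HEK293T cells summed to 27.2 to 30.5 CPM in VPS72 libraries and 28.3 to 31.0 CPM in FLAG libraries, mostly SALL1, with NEFL and CDH10 at 0. SALL1 was not near the floor, at 23.4 ± 2.47 CPM in VPS72 and 23.6 ± 0.71 CPM in FLAG libraries, a level like that of TIMP1. Of the fibroblast and stellate cell, endothelial, immune and HEK293T markers only 6, 1, 3 and 3 were tested. Of these tested genes 0 passed, and 1 (LYZ) was higher at an unadjusted p of 0.05. The 16 hepatocyte markers summed to 24164 to 24978 CPM in VPS72 libraries and 21320 to 22282 CPM in FLAG libraries, and 9 of them rose, 0 fell and 7 did not pass, with 14 positive and 2 negative log2 fold changes. Of all tested genes 0.421% rose. APOB, apolipoprotein B, had 9115 ± 308 CPM in VPS72 and 8300 ± 242 CPM in FLAG libraries (edgeR quasi-likelihood test, BH-adjusted p = 0.0104), and by the same test its adjusted p was 0.0773 when FLAG replicate 1 was left out, 0.0599 under library size scaling and 0.597 after correction for the abundance trend. AFP, alpha-fetoprotein, had 5184 ± 98.4 CPM in VPS72 and 4464 ± 82.0 CPM in FLAG libraries (log2 fold change 0.22 ± 0.02; edgeR quasi-likelihood test, BH-adjusted p = 5.89e-05). The part of the hepatocyte markers in the matrix result was not tested.

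**Figure D1:**
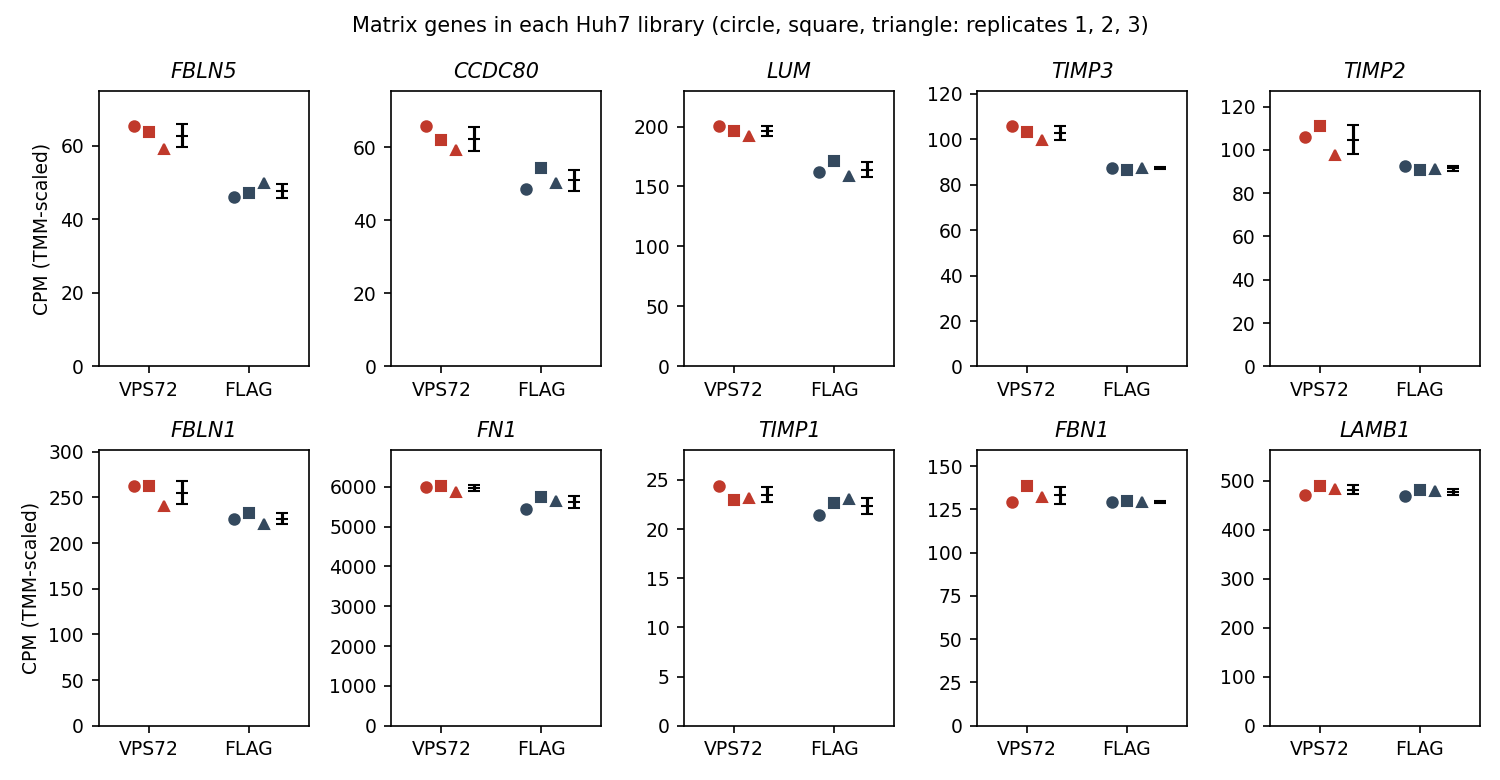
CPM (TMM-scaled, axes from 0) of the 10 matrix genes in each library, VPS72 left and FLAG right, replicates 1 to 3 as circle, square and triangle, and the mean with its SD beside the points. In FBLN5, CCDC80, LUM, TIMP3, TIMP2, FBLN1 and FN1 all 3 VPS72 libraries lie above all 3 FLAG libraries, and in TIMP1, FBN1 and LAMB1 the groups overlap.

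The elastic fibre genes are FBLN5, FBLN1 and FBN1. FBLN5, fibulin-5, organises elastic fibres by joining elastin and its crosslinking enzymes to microfibrils and to integrins. It had 65.2, 63.8 and 59.1 CPM in VPS72 replicates 1 to 3, against 46.1, 47.2 and 49.8 CPM in FLAG replicates 1 to 3. The groups were apart by 9.34 CPM between the lowest VPS72 and the highest FLAG library. The log2 fold change was 0.40 ± 0.06 (SE). FBLN5 rested on 1070 to 1876 counts per library, which gives a counting error of 2.31% to 3.06%, below the spread between libraries of a group (5.09% in VPS72 and 3.96% in FLAG libraries).

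FBLN1, fibulin-1, binds fibronectin and basement membrane proteins as well as elastic fibres. Its level was 262, 263 and 241 CPM in VPS72 libraries, against 226, 233 and 221 CPM in FLAG libraries. The groups did not overlap, but VPS72 replicate 3 was only 7.94 CPM above the highest FLAG library. The log2 fold change of 0.17 ± 0.04 was not past the threshold with all libraries and was past it without VPS72 replicate 3 (0.21). FBN1, fibrillin-1, is the main protein of the microfibrils. FBN1 had 129, 139 and 132 CPM in VPS72 libraries and 129, 130.0 and 129 CPM in FLAG libraries, with VPS72 replicate 1 level with the lowest FLAG library, so the groups overlapped. Its log2 fold change was 0.04 ± 0.04.

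Elastin itself was near absence in these cells. ELN, named after its values were seen, had 0 counts in each VPS72 library and 0, 1 and 5 counts in FLAG libraries. Among the other fibulins EFEMP1, fibulin-3, had the highest CPM, 138 ± 2.29 CPM in VPS72 libraries and 127 ± 6.48 CPM in FLAG libraries (log2 fold change 0.11 ± 0.05; edgeR quasi-likelihood test, BH-adjusted p = 0.34). EFEMP2, FBLN7 and FBLN2 are named after their values were seen. EFEMP2, fibulin-4, had 5.38 ± 1.27 CPM and 5.14 ± 0.58 CPM, and FBLN7 had 2.55 ± 0.16 CPM and 2.39 ± 0.29 CPM in VPS72 and FLAG libraries. FBLN2 had 7, 7 and 11 counts in VPS72 libraries and 3, 5 and 3 in FLAG libraries, below the filter. LTBP1, which tethers latent TGF-beta to microfibrils, was at 208 ± 13.7 CPM and 205 ± 5.13 CPM in VPS72 and FLAG libraries (edgeR quasi-likelihood test, BH-adjusted p = 0.927). Of the 20 further elastic fibre and microfibril genes 9 were tested and 0 passed the test, with 1 higher and 1 lower at an unadjusted p of 0.05. That level was reached by 11.5% of all tested genes, 6.03% in the higher direction.

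LUM and CCDC80 are secreted proteins of the interstitial matrix. LUM, lumican, is a small leucine-rich proteoglycan that binds collagen and sets the spacing of its fibrils. It was measured at 200, 196 and 192 CPM in VPS72 libraries, against 162, 171 and 159 CPM in FLAG libraries. The groups were apart, with 21.2 CPM between the nearest libraries, and varied little within themselves (CV of 2.04% in VPS72 and 3.86% in FLAG libraries). The log2 fold change was 0.26 ± 0.04. CCDC80, a secreted protein found bound to matrix, had 65.7, 61.9 and 59.1 CPM in VPS72 libraries and 48.5, 54.2 and 50.2 CPM in FLAG libraries. Both groups varied by over 5% (CV of 5.28% in VPS72 and 5.74% in FLAG libraries), and 4.93 CPM lay between them. CCDC80 had a log2 fold change of 0.29 ± 0.06. It was past the threshold in 7 of 16 alternatives, 1 of them with a library left out.

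DCN and BGN, relatives of lumican, were scarce. DCN, decorin, a relative that marks fibroblasts, had 0 counts in all VPS72 libraries and 0, 4 and 1 in FLAG libraries, and BGN, biglycan, had 1, 3 and 0 counts in VPS72 and 1, 0 and 0 in FLAG libraries. Both are named after their values were seen. Of other proteoglycans, FMOD had 2.72 ± 0.36 CPM in VPS72 and 3.43 ± 1.11 CPM in FLAG libraries. PODN had 21.7 ± 2.00 CPM in VPS72 and 19.9 ± 1.45 CPM in FLAG libraries. FMOD and PODN are also named after their values were seen. These libraries held 3407 to 5753 counts of LUM. Of 24 further leucine-rich and secreted proteoglycans 5 were tested and 0 passed, with 1 higher and 0 lower at an unadjusted p of 0.05. VCAN, versican, a large proteoglycan that binds hyaluronan, had 818 ± 11.5 CPM in VPS72 libraries and 759.8 ± 2.74 CPM in FLAG libraries (log2 fold change 0.11 ± 0.03; edgeR quasi-likelihood test, BH-adjusted p = 0.102). TSKU, tsukushi, a small liver-secreted member of the family, had 27.8 ± 1.52 CPM in VPS72 and 27.3 ± 1.59 CPM in FLAG libraries (adjusted p = 0.95 by the same test).

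The TIMP genes differed in fold change by amounts that were not tested. TIMP3, the one that stays bound to matrix, had 106, 103 and 99.7 CPM in VPS72 libraries and 87.5, 86.7 and 87.5 CPM in FLAG libraries. The FLAG values varied by 0.559% (CV) and lay 12.2 CPM or more below the VPS72 libraries, and the log2 fold change was 0.24 ± 0.04. That CV is below the counting error of 1.81% to 2.31% per library, so it does not measure precision. TIMP2, which also takes part in the activation of MMP2, had 106, 111 and 97.5 CPM in VPS72 libraries and 92.7, 90.5 and 91.2 CPM in FLAG libraries. The VPS72 libraries varied by 6.42% (CV) and the FLAG libraries by 1.19%, the latter below the counting error of 1.81% to 2.26% per library. The nearest libraries of the groups were 4.81 CPM apart, with a log2 fold change of 0.20 ± 0.05 that was past the threshold in 3 of 16 alternatives (DESeq2, no filter, and correction for GC and length) and not with all libraries in edgeR. TIMP1, an inducible inhibitor, had 24.4, 23.0 and 23.1 CPM in VPS72 libraries, against 21.5, 22.6 and 23.0 CPM in FLAG libraries. The groups overlapped and the log2 fold change was 0.07 ± 0.08. TIMP4, named after its values were seen, had only 168, 69 and 84 counts in VPS72 and 109, 90 and 91 counts in FLAG libraries.

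Of the proteinases that TIMPs inhibit and their relatives 0 passed the test. Of 35 genes of the MMP, ADAM and ADAMTS families 17 were tested, with 1 higher and 0 lower at an unadjusted p of 0.05 and a median log2 fold change of 0.00. MMP1, MMP2, MMP9, MMP10 and ADAMTS15 had 0 counts in all 6 libraries. ADAM9, a membrane-bound sheddase, had 477 ± 19.4 CPM in VPS72 libraries and 473 ± 2.43 CPM in FLAG libraries, and ADAM10, a sheddase of Notch and cadherins, 277 ± 11.7 CPM in VPS72 and 268 ± 9.06 CPM in FLAG libraries (edgeR quasi-likelihood test, BH-adjusted p = 0.939 and 0.743). Of 10 other inhibitors of matrix proteases 9 were tested, 1 rose, 0 fell and 8 did not pass. Of all tested genes 0.421% rose and 0.196% fell. The 1 that rose was A2M, alpha-2-macroglobulin, a plasma inhibitor that traps proteases and is made by liver. A2M had 889.6, 839.7 and 849 CPM in VPS72 libraries and 761, 768 and 749 CPM in FLAG libraries (log2 fold change 0.18 ± 0.03; edgeR quasi-likelihood test, BH-adjusted p = 0.0101). By the same test its adjusted p was 0.0773 when FLAG replicate 1 was left out, 0.0513 for FLAG replicate 3, 0.064 for VPS72 replicate 1, and 0.0877 with the abundance trend removed.

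FN1 and LAMB1 encode large glycoproteins to which cells adhere. FN1, fibronectin, had 5988, 6026 and 5878 CPM in VPS72 libraries and 5451, 5748 and 5643 CPM in FLAG libraries. Every VPS72 library was above every FLAG library, by 130.4 CPM at the nearest, and the log2 fold change was 0.09 ± 0.02. It was not past the threshold. Over 16 alternatives it ran from -0.001 with the abundance trend removed to 0.108 after correction for GC and length, and it passed in 5 of them. LAMB1, the beta-1 chain of most laminins, had 472, 490.0 and 483 CPM in VPS72 libraries and 470.0, 482 and 479 CPM in FLAG libraries. The groups overlapped, and the log2 fold change of 0.01 ± 0.03 turned to -0.018 with library size alone and to -0.032 with the abundance trend removed. LAMB1 shares exon positions with DLD on the opposite strand, and use of strand in counting was not given in the sources used here. DLD had 1661 to 2283 counts where LAMB1 had 10304 to 13564.

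The other basement membrane and adhesive genes did not pass the test with all libraries in edgeR. NID1 and VTN, named after their values were seen, passed in some alternatives. NID1 had 286 ± 6.67 CPM in VPS72 and 256 ± 3.23 CPM in FLAG libraries (edgeR quasi-likelihood test, BH-adjusted p = 0.0526). VTN had 241 ± 8.30 CPM in VPS72 and 217 ± 9.62 CPM in FLAG libraries (adjusted p = 0.141 by the same test). Of 28 basement membrane genes 18 were tested and 0 passed, with 4 higher and 1 lower at an unadjusted p of 0.05. That level was reached in the higher direction by 6.03% of all tested genes. LAMC1, the laminin gamma-1 chain that pairs with LAMB1, had 475 ± 1.66 CPM in VPS72 libraries and 456 ± 10.8 CPM in FLAG libraries (log2 fold change 0.06 ± 0.03; edgeR quasi-likelihood test, BH-adjusted p = 0.511). LAMA5, a laminin alpha chain, varied within both groups, at 456, 649 and 673 CPM in VPS72 libraries and 660, 478 and 699 CPM in FLAG libraries, with VPS72 replicate 1 and FLAG replicate 2 low. These libraries were also the lowest of their groups for AGRN (299 and 306 CPM), COL18A1 (58.5 and 59.8 CPM) and P4HB (493 and 473 CPM), named here after their values were seen. They were not for LAMC1, and the cause was not tested. Of 33 adhesive and matricellular glycoproteins 16 were tested and 0 passed, with 4 higher and 0 lower at an unadjusted p of 0.05. THBS1, thrombospondin-1, which binds cells and activates latent TGF-beta, had 918 ± 18.7 and 874 ± 10.6 CPM, and TGFBI, a TGF-beta-induced adhesive protein, 642 ± 9.97 and 598 ± 16.7 CPM in VPS72 and FLAG libraries (edgeR quasi-likelihood test, BH-adjusted p = 0.32 and 0.172).

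Collagen genes and their enzymes gave 0 calls as well. Of 24 collagens outside basement membranes 11 were tested and 0 passed, with 2 higher and 0 lower at an unadjusted p of 0.05. COL5A2, a chain of the type V collagen found in fibril cores, had the highest CPM of the list, 783 ± 14.8 CPM in VPS72 libraries and 719 ± 13.0 CPM in FLAG libraries (log2 fold change 0.12 ± 0.03; edgeR quasi-likelihood test, BH-adjusted p = 0.0701), and COL27A1, a fibrillar collagen of cartilage, had 125 ± 2.04 CPM in VPS72 and 116 ± 3.38 CPM in FLAG libraries (adjusted p = 0.331). COL5A2 passed with DESeq2 (adjusted p = 0.00799), with limma-voom (0.0367), and in edgeR without a filter (0.0183) or after correction for GC and length (0.00193). Of 31 enzymes and chaperones that process collagen and elastin 24 were tested and 0 passed, with 7 higher and 0 lower at an unadjusted p of 0.05. That level was reached in the higher direction by 6.03% of all tested genes. P4HB, a prolyl hydroxylase subunit and disulfide isomerase, had 560.2 ± 60.9 and 559.7 ± 75.6 CPM, and PLOD2, a collagen lysyl hydroxylase, 293 ± 7.78 and 274 ± 15.3 CPM in VPS72 and FLAG libraries (edgeR quasi-likelihood test, BH-adjusted p = 0.998 and 0.397). LOX, the lysyl oxidase that crosslinks collagen and elastin, named after its values were seen, had 22.2 ± 1.06 CPM in VPS72 and 16.6 ± 1.49 CPM in FLAG libraries (log2 fold change 0.42 ± 0.10; adjusted p = 0.0595).

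Among cell-surface receptors for matrix 1 gene rose. Of 34 integrins, syndecans, glypicans and other receptors 29 were tested, 1 rose, 0 fell and 28 did not pass. ITGA5, the alpha chain of the integrin that binds fibronectin, had 118, 123 and 120.1 CPM in VPS72 libraries and 104, 107 and 104 CPM in FLAG libraries (log2 fold change 0.19 ± 0.04; edgeR quasi-likelihood test, BH-adjusted p = 0.0489). The groups were apart, but the call lay close to the threshold. By the same test it was lost whichever library was left out, at an adjusted p from 0.0662 without FLAG replicate 2 to 0.226 without FLAG replicate 1, and with library size alone (0.105), upper quartile scaling (0.0608) and the abundance trend removed (0.0782). The log2 fold change of ITGA5 stayed at 0.184 to 0.212 over the leave-outs. Whether those calls were lost through the smaller number of libraries was not tested. Over all 9 lists, 138 of 239 genes were tested, 2 rose and 0 fell, and 28 were higher and 3 lower at an unadjusted p of 0.05. Of all tested genes 0.421% passed in the higher direction, and 11.5% reached the unadjusted level, 6.03% in the higher direction. Of the 6900 genes at least as abundant as TIMP1, 58 passed and 721 reached the unadjusted level in the higher direction. DESeq2 called 8 of the 138 (A2M, COL5A2, GPC3, ITGA5, LOX, NID1, VCAN and VTN) and limma-voom 6 (A2M, COL5A2, GPC3, ITGA5, NID1 and VCAN), of which GPC3, NID1 and VTN are named after the calls were seen. The median log2 fold change of the 138 genes was 0.06, against 0.18 for the 10 genes above, -0.00 for all tested genes and 0.01 for the 6900 tested genes at least as abundant as TIMP1. The lists were chosen with earlier results of these data known, and no test of the lists as groups was made.

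**Figure D2:**
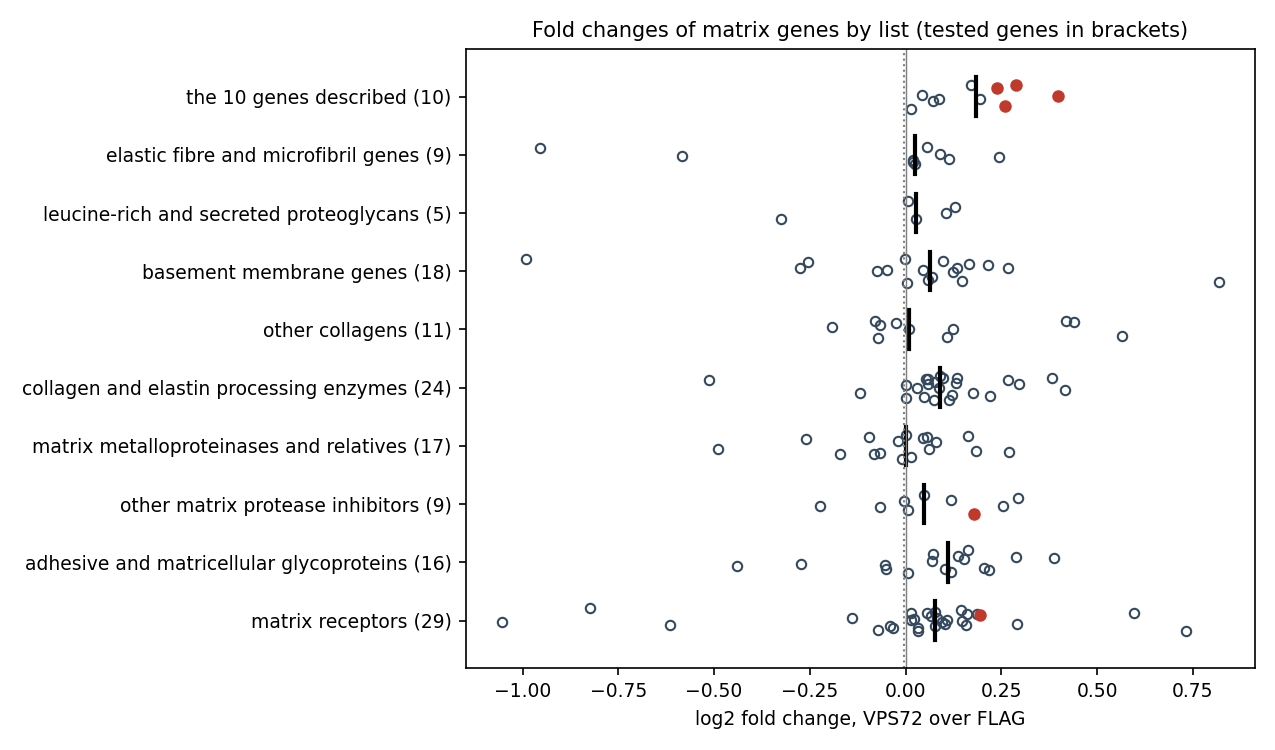
Log2 fold change of VPS72 over FLAG for each tested gene of the 10 described and of the 9 other matrix lists, with filled points past a Benjamini-Hochberg adjusted p of 0.05 in edgeR, a black bar at the list median and a dotted line at the median of all tested genes. The 10 genes run from 0.01 to 0.40, and A2M and ITGA5 are the filled points of the other lists.

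Levels of different genes can be compared only per length. Per kb of the longest principal transcript in GENCODE release 29, FN1 led at 755 ± 9.73 CPM per kb in VPS72 libraries and 711 ± 19.1 CPM per kb in FLAG libraries. In VPS72 libraries FBLN1 (88.2 ± 4.32 CPM per kb), LAMB1 (84.1 ± 1.62) and LUM (65.2 ± 1.33) came next, and in FLAG libraries LAMB1 (83.3 ± 1.09), FBLN1 (78.3 ± 2.02) and LUM (54.5 ± 2.10). FBLN1 and LAMB1 overlapped over the VPS72 libraries and did not over the FLAG libraries. FBLN5 was at 29.5 ± 1.51 CPM per kb in VPS72 libraries, level within the spread with TIMP2 (28.7 ± 1.84), and at 22.5 ± 0.89 CPM per kb in FLAG libraries, below both TIMP1 (25.1 ± 0.90) and TIMP2 (25.0 ± 0.30). TIMP3, FBN1 and CCDC80 followed in both groups, with CCDC80 lowest at 5.01 ± 0.26 CPM per kb in VPS72 and 4.10 ± 0.24 CPM per kb in FLAG libraries. The CCDC80 transcript used is 12430 bases long, against 892 for TIMP1, and a shorter transcript in use would raise its level per kb.

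**Figure D3:**
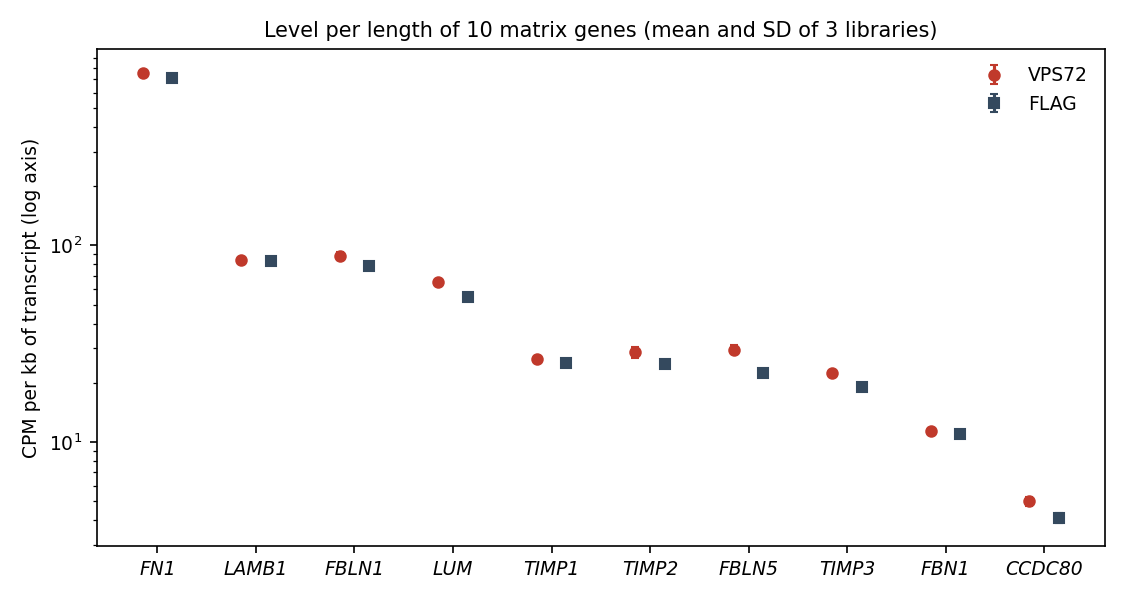
Level of each gene as CPM per kb of transcript on a log axis, VPS72 (circles) left of FLAG (squares), as mean and SD of 3 libraries, with genes in the order of their FLAG level. FN1 lies at 755 and 711 CPM per kb, above the other 9 genes in both groups, and FBLN5 stands level with TIMP2 in the VPS72 libraries and below TIMP1 and TIMP2 in the FLAG libraries.

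The 10 genes together took 0.733%, 0.739% and 0.718% of the counts of VPS72 replicates 1 to 3 and 0.681%, 0.715% and 0.698% of FLAG replicates 1 to 3, with FN1 making up 80.6% to 81.4% of their summed CPM in every library. Without FN1 the other 9 summed to 1429.7, 1450.4 and 1387 CPM in VPS72 libraries and 1283, 1317 and 1290.2 CPM in FLAG libraries, and the groups did not overlap. Nothing is read from that separation, since the choice included genes known to stand higher in these libraries. Libraries of a group also differed. VPS72 replicate 3 was above its group mean in 1 of the 10 genes, and FLAG replicate 1 in 2 of 10. VPS72 replicate 3 was the lowest VPS72 library in all 7 genes whose groups were apart, a separation shown by 8.76% of tested genes in the higher and 8.47% in the lower direction.

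The number of the 10 genes past the threshold depended on the libraries and the scaling. The count over all tested genes moved as well, and nothing is read from either. With all libraries in edgeR 4 of the 10 passed, among 88 genes over all. Without FLAG replicate 1 the count was 1 (FBLN5) among 25 genes, and without FLAG replicate 2 it was 5, with FN1 added, among 100. It was 2 (FBLN5 and LUM) without FLAG replicate 3 (42 genes over all), VPS72 replicate 1 (35) or VPS72 replicate 2 (52). Without VPS72 replicate 3 it was 4 among 56, with FBLN1 in place of CCDC80. CCDC80 was lost, leaving 3, with library size alone (86 genes over all), upper quartile scaling (76) and the abundance trend removed (54). The count was 7 without a filter (264 genes over all) and 7 after correction for GC and length (418), both of which added FBLN1, TIMP2 and FN1. DESeq2 called 6 of the 10, adding FBLN1 and TIMP2, among 214 genes, and limma-voom 5, adding FN1, among 128. Over 16 alternatives the log2 fold change of FBLN5 was 0.37 to 0.44, of CCDC80 0.25 to 0.34, of LUM 0.23 to 0.29 and of TIMP3 0.21 to 0.26.

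**Figure D4:**
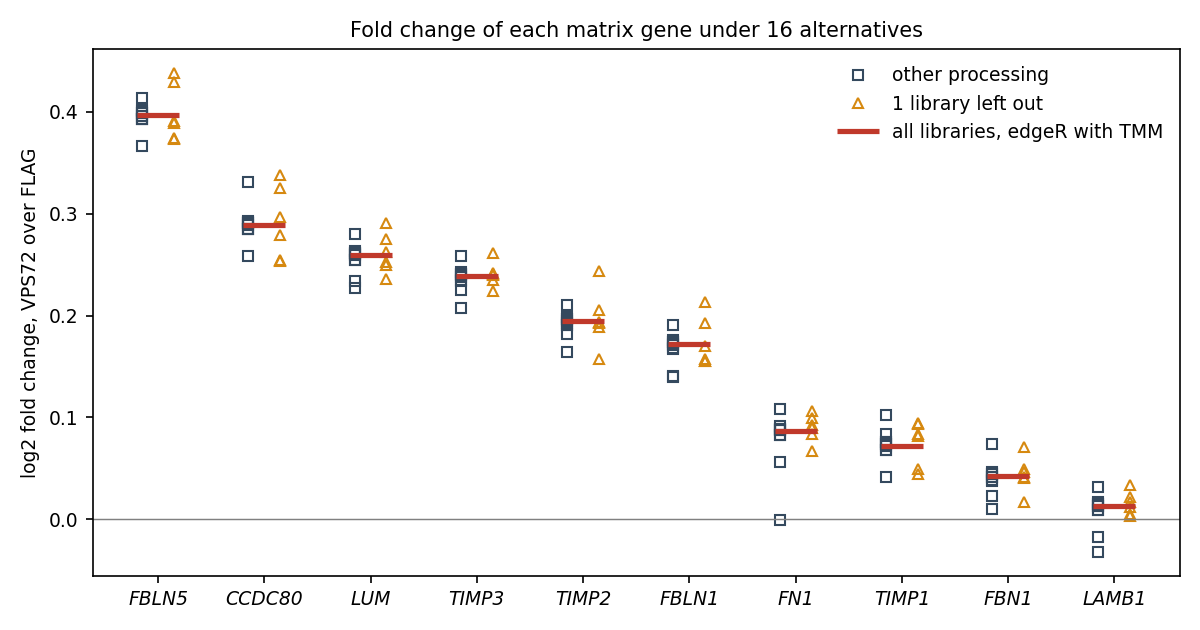
Log2 fold change of VPS72 over FLAG for the 10 genes with all libraries in edgeR (bars), under other processing (squares) and with 1 library left out (triangles). FBLN5 lies between 0.37 and 0.44, while with the abundance trend removed FN1 lies at -0.001 and LAMB1 at -0.032.

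The genes with a profile over the 6 libraries most like that of FBLN5 were TM4SF5, a membrane protein of the tetraspanin-like L6 family, IGDCC3, an immunoglobulin superfamily membrane protein, and TTR, the liver-secreted thyroxine carrier. Likeness was the root mean square difference of log2 CPM, each gene centred on its own mean, among genes that averaged 5 CPM or more, and it was 0.0367, 0.0575 and 0.0659 on the log2 scale. TM4SF5 had 13.1, 13.7 and 12.0 CPM in VPS72 libraries and 9.39, 9.34 and 10.3 CPM in FLAG libraries, with VPS72 replicate 3 lowest in its group and FLAG replicate 3 highest in its own, as in FBLN5. Genes near LUM by the same measure included APOL2 (0.0185), an intracellular relative of apolipoprotein L, and FGB (0.0271), a fibrinogen chain made by hepatocytes. APOL2 had 25.8, 25.9 and 25.5 CPM in VPS72 libraries and 21.4, 22.7 and 21.3 CPM in FLAG libraries, with FLAG replicate 2 highest in its group, as in LUM. In edgeR's quasi-likelihood test TTR and FGB were past the threshold (BH-adjusted p = 0.00246 and 0.00123). TM4SF5, IGDCC3 and APOL2 were not (adjusted p = 0.124, 0.104 and 0.224 by the same test). The search covered 10416 genes over 6 libraries and is a description, with no test of likeness.

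TIMP1, TIMP2 and TIMP3 each overlap another gene on the reference, and these held few counts. SYN1, on the strand opposite TIMP1, had 0 to 1 counts where TIMP1 had 495 to 702, and SYN3, opposite TIMP3, had 39 to 68 counts where TIMP3 had 1880 to 3039. CEP295NL, which shares exon positions with TIMP2, had 31 to 63 counts where TIMP2 had 1960 to 3042.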

How the data were processed

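Per the labels' protocols, RNAzol was used for Huh7 total RNA and KAPA RNA HyperPrep for the libraries. The authors deposited gene-level estimated counts as whole numbers, not normalized, with STAR, RSEM and limma named per the submitters' processing notes; the notes name hg19 and hg38 without role, so no gene coordinates of the table are printed, and versions, annotation and use of strand were not given in the sources used here. Counting by estimation splits reads between similar or overlapping genes.

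Groups came from sample titles (3 VPS72, 3 FLAG). Values were rounded, filtered with filterByExpr (minimum count 10, minimum total 15; 99.925% of counts kept), scaled by TMM and tested with edgeR 4.0.16 (R 4.3.3) by quasi-likelihood, with Benjamini-Hochberg adjustment over 14253 genes and a threshold of 0.05; the SE is the log2 fold change divided by the root of F. The script was tested on simulated data. Libraries held 21345279 to 29091824 counts; counting errors cover sampling only, and libraries of a group differed beyond it (chi-square over its degrees of freedom 4.70 to 7.69). Members and 14 gene lists (299 entries, all found in the table) were chosen with earlier results of these data known. Named were the 10 genes, VPS72, of each matrix list up to 4 genes past the threshold or else the 2 most abundant, of each marker list the 2 most abundant (given where they carry the sum), and 3 genes most alike FBLN5 and LUM; others are marked as chosen after their values were seen. A result that the rule names is not reported here. Transcript lengths came from GENCODE release 29 and promoters from RefSeq GRCh38.p14. Alternatives were DESeq2 1.42.0, limma-voom (limma 3.58.1), other scalings and filters, a replicate block, removal of an abundance trend or a GC and length trend (both known for 98.0% of tested genes), and each library left out.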

Additional observations from a re-analysis of the deposited data

How the results depend on the processing

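The median log2 fold change of the 10 genes was 0.18, and over 16 alternatives it ran from 0.15 with library size alone to 0.23 without VPS72 replicate 3. Calls moved more. Over all genes, 88 were past the threshold, against 264 without a filter, 214 with DESeq2, 418 with the GC and length trend removed (346 higher and 72 lower) and 54 with the abundance trend removed (27 and 27); library size alone gave 32 higher and 54 lower and upper quartile scaling 44 and 32, where TMM gave 60 and 28. Library size alone shifted the median of all genes to -0.04. Leaving out a library gave 25 to 100 calls. Of the 10 genes, 4 were past the threshold with all libraries, 7 without a filter, 7 after correction for GC and length, and 1 to 5 in leave-outs. Of the 138 other matrix genes 2 passed, against 1 with library size alone or upper quartile scaling, 0 with the abundance trend removed, 7 without a filter, 18 after correction for GC and length, 8 with DESeq2, 6 with limma-voom and 0 to 1 in leave-outs. The cause was not tested. With the replicate number as a block 32 genes passed over all, 2 of the 10 genes (FBLN5 and LUM) and 0 of the other matrix genes. Same-numbered libraries had correlations of -0.28, -0.15 and 0.15 in their deviations from the group means over 7966 genes. These values showed no pairing by number, but with 3 libraries per group they cannot exclude it. Of the FLAG libraries 1 correlated best with the VPS72 library of its own number, and of the VPS72 libraries 0 with the FLAG library of theirs. Of genes that did not pass, log2 fold changes turned in sign with library size alone for LTBP1 (-0.011), TSKU (-0.006), P4HB (-0.03) and ADAM9 (-0.018), with the abundance trend removed for LTBP1 (-0.007), P4HB (-0.048) and ADAM9 (-0.032), for P4HB with upper quartile scaling (-0.004) and the stricter filter (-0.003), and for LAMA5 after removal of the GC and length trend (0.01). Over the leave-outs they ran from -0.013 to 0.073 for LTBP1, -0.021 to 0.076 for TSKU, -0.197 to 0.115 for LAMA5, -0.106 to 0.091 for P4HB and -0.018 to 0.044 for ADAM9. The 5.06% difference of TIMP1 stands beside a counting error of 3.77% to 4.49% per library.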
